A study of Mus musculus with 37 samples.

Results

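The 10 genes described here encode transcription factors and Id proteins that act in the formation and upkeep of astrocytes: Sox9, Sox2, Nfia, Nfib, Id2, Id3, Id4, Hes1, Hes5 and Zbtb20. The rule lists them by symbol, and all 10 were found, with 1 Ensembl identifier each, among the 21975 genes of the deposited tables. RNA was sequenced in bulk from hippocampal astrocytes collected on magnetic beads against the surface antigen ACSA-2, with separate libraries for the contralateral and the ipsilateral hippocampus of a mouse. The mice were adult males, named CD1 in the methods and CD31 in the sample labels. Injured mice had a severe controlled cortical impact (CCI) on one side of the brain, sham mice had the surgery without the impact, and tissue was taken 4 months later, after EEG and video recording. PTE+ mice were those in which post-traumatic epilepsy was recorded, and PTE- mice were injured without it. Every one of the 20 mice (PTE+ 5, PTE- 10, sham 5) gave a contralateral library. For 17 of them there is an ipsilateral library as well (PTE+ 4, PTE- 8, sham 5).

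Astrocytes arise from radial glia, and several of these genes act in both cell types. SOX9 and SOX2 are DNA-binding factors of the SOX family, of which SOX9 switches neural progenitors towards glia and stays on in mature astrocytes, while SOX2 maintains stem cells and is also kept by astrocytes. SOX9 induces NFIA, and NFIA and NFIB, of the nuclear factor I family, then start the astrocyte genes. Id proteins have a helix-loop-helix but no DNA-binding domain, so they hold E proteins and proneural factors in inactive pairs, and bone morphogenetic proteins (BMPs) induce them through SMAD proteins. HES1 and HES5 are repressors that Notch signalling induces through RBPJ. ZBTB20 is a zinc-finger repressor of transcription that acts in the formation of the hippocampal field and of astrocytes.

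The sequences 250 bases upstream of the annotated start are shown for Id2, Id4 and Hes5, which are among the members named in the comparisons below. They are those of RefSeq on GRCm38.p6, which held this region for 7 of the 10 genes. Capitals mark 2 motifs, searched on both strands: the core that RBPJ binds, which is TGGGAA, and the palindrome GGCGCC, an element bound by SMAD proteins of BMP signalling. Of 32851 promoters of this length, 21.6% hold the first and 9.59% the second, and no match of one overlaps a match of the other in these 3 genes. The share of G and C bases was 62.8% in Id2, 75.6% in Id4 and 71.6% in Hes5, beside a median of 52.4% over all promoters. The background percentages are not matched for this share, and the part of base composition in the matches was not tested. Binding was not measured in this study, and the letters are shown as a description. The Id2 region lies on the minus strand at chr12:25096093-25096342, the Id4 region on the plus strand at chr13:48260866-48261115 and the Hes5 region on the plus strand at chr4:154960673-154960922. Hes5 has 2 matches to TGGGAA and 4 to GGCGCC, Id4 has 1 of each, and Id2 has 1 match to GGCGCC and none to TGGGAA. Of the other members with this region, Sox2, Nfia and Id3 have no match to either motif. Zbtb20 has 1 match to TGGGAA and none to GGCGCC.
Id2: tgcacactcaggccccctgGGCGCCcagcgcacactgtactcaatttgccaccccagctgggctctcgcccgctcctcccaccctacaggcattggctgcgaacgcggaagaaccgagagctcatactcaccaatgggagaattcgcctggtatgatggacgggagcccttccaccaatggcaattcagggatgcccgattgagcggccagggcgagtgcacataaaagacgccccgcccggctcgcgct
Id4: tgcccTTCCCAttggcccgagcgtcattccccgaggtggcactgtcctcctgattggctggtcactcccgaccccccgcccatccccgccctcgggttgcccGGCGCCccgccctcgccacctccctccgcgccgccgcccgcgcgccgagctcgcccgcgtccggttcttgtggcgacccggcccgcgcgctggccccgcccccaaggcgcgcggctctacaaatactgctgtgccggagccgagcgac
Hes5: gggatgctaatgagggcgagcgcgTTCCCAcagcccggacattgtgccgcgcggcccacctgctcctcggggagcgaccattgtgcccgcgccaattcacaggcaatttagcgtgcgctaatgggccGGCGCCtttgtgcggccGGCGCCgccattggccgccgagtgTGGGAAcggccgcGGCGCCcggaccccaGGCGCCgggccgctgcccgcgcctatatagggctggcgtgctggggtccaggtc

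All 10 genes were detected in all 37 libraries, with at least 928 counts (Hes1) in the library where they were lowest. Their mean TPM, a level per transcript length, was higher than that of 86.3% (Hes1) to 99.4% (Id3) of all genes. The order of the mean TPM over the 37 libraries was Id3 (747 ± 188, SD), Hes5 (635 ± 265), Id2 (526 ± 156), Id4 (246 ± 69.3), Sox2 (237 ± 67.6), Sox9 (194 ± 70.5), Zbtb20 (174 ± 86.2), Nfia (73.1 ± 37.9), Nfib (61.8 ± 21.9) and Hes1 (60.0 ± 36.7). Id2 was above Id4 in 36 of 37 libraries, and Zbtb20 was above Nfia in 35 of 37. Other neighbours changed places more often: Id3 was above Hes5 in 22 libraries, Hes5 above Id2 in 25, Id4 above Sox2 in 21, and Nfib above Hes1 in 19. The Notch targets stood at both ends, since Hes5 had the next to highest mean TPM and Hes1 the lowest of the 10.

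Library size, depth and purity bear on all of these values. Contralateral libraries held 25371887 to 55333329 counts and ipsilateral ones 36925501 to 59846479, and between 9020 and 15545 genes were detected. Fewer than 12000 genes were detected in 5 libraries: 2 contralateral PTE-, 2 ipsilateral PTE- and 1 ipsilateral sham, with the fewest in the ipsilateral library of PTE- mouse a8_11. All 10 astrocyte markers were detected in every library, and their summed TPM ranged from 5941.5 (PTE- mouse a8_11, ipsilateral) to 22031, with a median of 16572. Markers of radial glia-like stem cells and neuroblasts, cells that also use Sox2, Sox9, Hes5 and Id4, summed to 0.03 to 136 TPM with a median of 15.7. Among them, Neurog2 and Tfap2c had at most 3 counts in 22 libraries each, Eomes in 20 and Dcx in 19. Mki67 and Igfbpl1 did so in 14 each, Sox11 in 10 and Nes in 2, and the median of Nes was 8.54 TPM. The medians of the summed markers were 375 TPM for microglia, 643 for the oligodendrocyte lineage, 175 for neurons, 885 for endothelial and mural cells and 628 for ependyma and choroid plexus. Their ranges were 27.1 to 1326 TPM for microglia, 311 to 2187.5 for the oligodendrocyte lineage and 61.3 to 1116 for neurons. Endothelial and mural markers summed to 97.6 to 5619 TPM. Those of ependyma and choroid plexus summed to 104 to 9807 TPM, highest in the ipsilateral library of PTE- mouse a9_12. In bulk RNA, fewer cells of a type and less RNA per cell cannot be told apart.

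Levels within a gene are given below in CPM, counts relative to the library size as scaled by TMM, and are shown by library in the plot of CPM by hemisphere and group. Sox9 (chromosome 11, from 112782224 to 112787760) ranged from 239.7 to 1000.3 CPM. Its group medians lay between 403 (contralateral PTE+) and 538 CPM (ipsilateral PTE-). Both extremes were contralateral PTE- libraries, of mice a8_11 and a9_20. Sox2 (chromosome 3, from 34650405 to 34652461) had group medians of 244 to 299 CPM, and its lowest and highest libraries, at 175 and 645 CPM, were both ipsilateral sham. In the PTE+ ipsilateral libraries it kept to 234 to 290 CPM. The 3 groups overlapped for both SOX genes in both hemispheres.

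**Figure D1:**
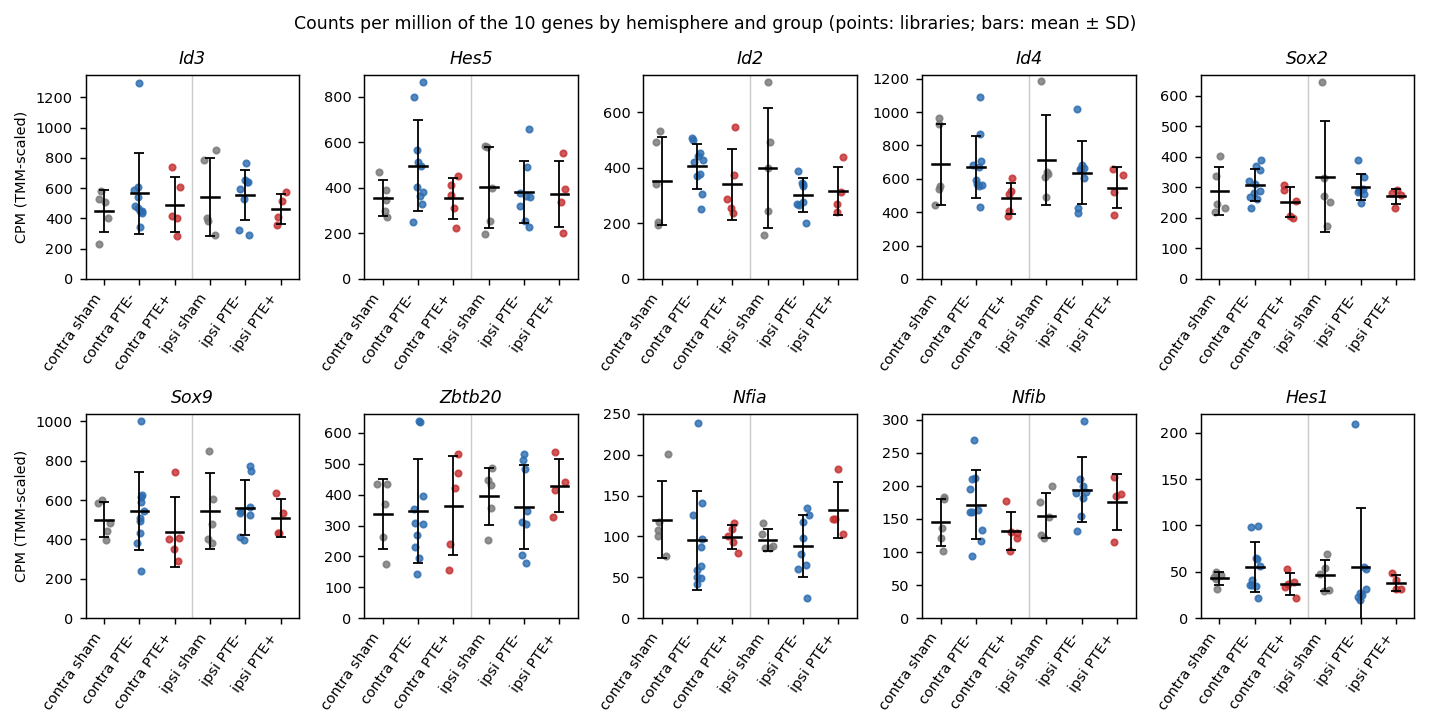
CPM (vertical axis, counts relative to TMM-scaled library size, linear) of the 10 genes in the 3 groups of each hemisphere, in the order of their mean TPM; points are libraries, horizontal lines group means and bars 1 SD (the lower bar of Hes1 in ipsilateral PTE- runs below 0). The groups overlap in every panel, and the ipsilateral PTE- library of mouse a8_11 stands at 209.6 CPM for Hes1.

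Nfia (chromosome 4, from 97772734 to 98118874) had a median of 75.9 CPM in contralateral PTE- and of 108 CPM in contralateral sham, while the ipsilateral medians of PTE- and sham were both 88.7 CPM. Its extremes, 24.8 and 239 CPM, were both in PTE- libraries. The contralateral PTE+ libraries were at 79.2, 92.7, 101, 109.7 and 116 CPM, inside the PTE- range. Nfib (chromosome 4, from 82290173 to 82705750) had group medians between 128 (contralateral PTE+) and 190.0 CPM (ipsilateral PTE-). Nfia overlaps E130114P18Rik, a gene on the other strand that is also in the tables, and with this kit, which does not mark strand, reads of the shared bases cannot be told apart.

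Id2 (chromosome 12, from 25093799 to 25097140) had its widest spread in sham. The ipsilateral sham libraries were at 159, 243, 399.8, 491 and 708 CPM, while the 8 ipsilateral PTE- libraries lay between 199.6 and 388 CPM, with a median of 306. Id3 (chromosome 4, from 136143497 to 136145755) had group medians between 403 and 617 CPM, and 1 contralateral PTE- library, of mouse a8_11, reached 1297.5 CPM against 608 in the next. Id4 (chromosome 13, from 48261228 to 48266026) was at 375, 409, 507, 528 and 605 CPM in the contralateral PTE+ libraries. The 10 contralateral PTE- libraries ranged from 428 to 1089 CPM with a median of 634, and the 5 sham libraries were at 444, 538, 555, 927 and 967 CPM. For Id4, 4 of the 5 PTE+ libraries were lower than 9 of the 10 PTE- libraries, and the ranges still overlapped.

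Hes1 (chromosome 16, from 30064384 to 30067796) had group medians between 29.2 and 48.4 CPM, both in PTE-. Hes5 (chromosome 4, from 154960923 to 154962371) was at 224, 311, 369, 414 and 453 CPM in contralateral PTE+ and at 274, 298, 345, 391 and 471 CPM in contralateral sham. In contralateral PTE- it ranged from 250.3 to 865 CPM with a median of 449, and 5 of the 10 PTE- libraries were above every PTE+ and sham library. The 2 highest of them, mice a9_14 at 865 and a9_20 at 799 CPM, are the 2 contralateral libraries with under 12000 detected genes. Zbtb20 (chromosome 16, from 42875881 to 43642602) ranged from 143 to 637 CPM, both in contralateral PTE-, with group medians between 307 and 430 CPM.

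The contralateral comparison of PTE+ with PTE- asks which genes differ with epilepsy among mice with the same severe impact setting, away from the lesion. The size of the lesion in these mice was not analysed here. Id4, the member with the smallest p, was lower in PTE+, at 485 ± 93.0 CPM (SD, n = 5) against 673 ± 187 CPM (n = 10). Its log2 fold change was -0.48 (standard error 0.22, unadjusted p = 0.0431, adjusted p = 0.99981 from edgeR's quasi-likelihood test with Benjamini-Hochberg adjustment). It was the only member of 10 with an unadjusted p under 0.05, a level that 2.21% of the 14642 genes tested reached, and no member had an adjusted p under 0.05, as 0.00683% of genes did. An exact permutation test of log2(CPM + 1), two-sided, gave p = 0.034 for Id4 and a p under 0.05 for no other member, against 4.34% of all genes. Without the 2 contralateral libraries with few detected genes, both PTE-, the Id4 log2 fold change was -0.50 (unadjusted p = 0.0474 from edgeR). On log2(TPM + 1) it was -0.32 with limma (unadjusted p = 0.185), and when 1 library was left out at a time the p of edgeR lay between 0.0219 and 0.113 and was under 0.05 in 6 of 15 fits. Within the mice named a9 (3 PTE+ and 6 PTE-) the difference in mean log2(CPM + 1) was -0.55 (exact permutation p = 0.131), and within those named a8 (2 and 4) it was -0.29 (exact p = 0.133, where 0.0667 is the smallest possible).

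Of the 10 members, 8 had a lower and 2 (Zbtb20 and Nfia) a higher fitted value in contralateral PTE+ than in PTE-, with a median log2 fold change of -0.30, and that of all genes was -0.05. Hes5 was at -0.49 (standard error 0.26, unadjusted p = 0.0757) and Hes1 at -0.60 (standard error 0.39, unadjusted p = 0.139). The libraries of PTE+ and PTE- overlapped for all 10 members, as they did for all but 0.041% of the genes tested. The summed endothelial and mural markers were 829 to 5619 TPM in contralateral PTE+ and 425 to 2019 TPM in PTE-, and the summed astrocyte markers were 13849 to 15968 TPM against 13170.0 to 19073 TPM. The summed neuron markers were 97.3 to 1116 TPM in contralateral PTE+ and 79.9 to 221 TPM in PTE-. Over the contralateral libraries, r of Id4 was -0.364 with the neuron sum and -0.31 with the endothelial and mural sum. It was 0.121 with the astrocyte sum and 0.495 with the sum for ependyma and choroid plexus. The part of these markers in the Id4 value was not tested.

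**Figure D2:**
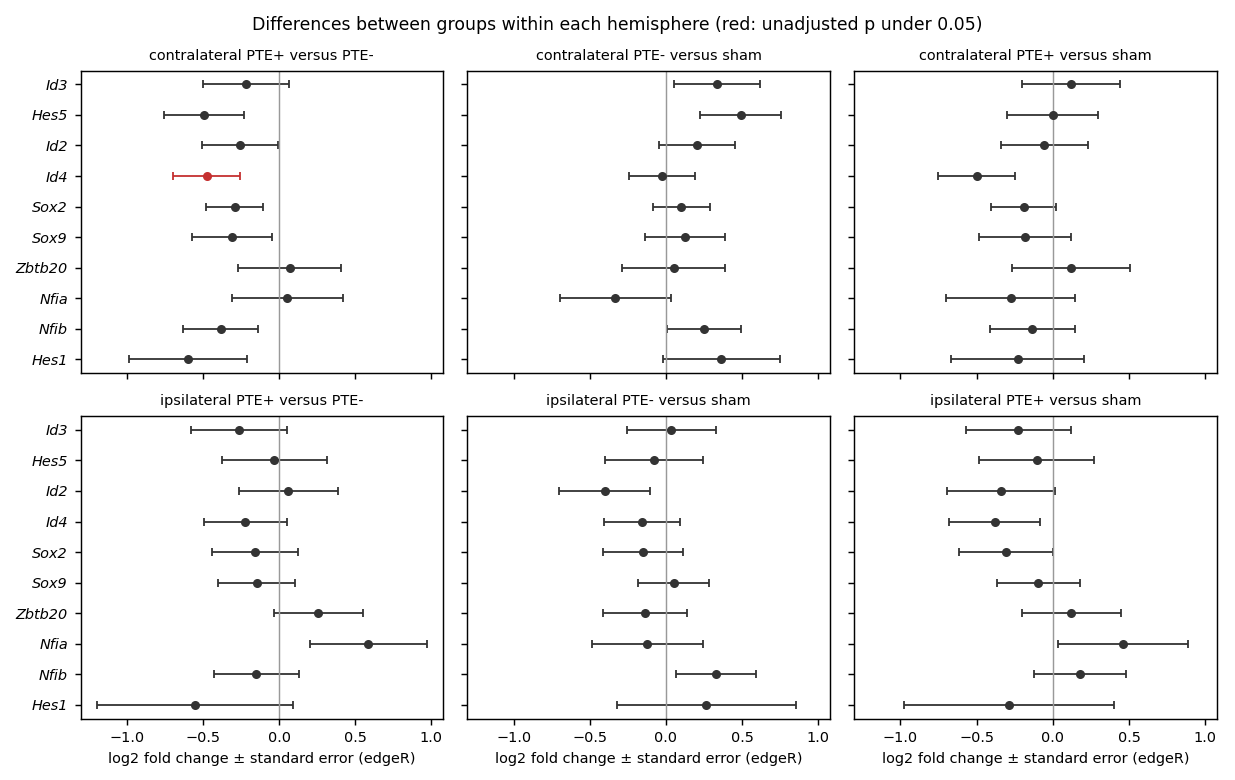
Log2 fold change (horizontal axis, edgeR) of the 10 genes in the 6 comparisons of groups within a hemisphere; points are estimates, bars 1 standard error, and red marks an unadjusted p under 0.05. Id4 in the contralateral PTE+ versus PTE- panel is the red point, at -0.48.

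Injury without epilepsy was compared with sham in the contralateral libraries, which share the PTE- samples with the comparison above. None of the 10 members had an unadjusted p under 0.05 by edgeR, against 1.54% of genes, and 0% of genes passed the adjusted threshold. Hes5 had the smallest p, at 497 ± 200.04 CPM (SD, n = 10) in PTE- and 356 ± 78.5 CPM (n = 5) in sham, with a log2 fold change of 0.49 (standard error 0.26, unadjusted p = 0.0768). Without the libraries with few detected genes, which include the highest pair of Hes5, its log2 fold change was 0.22 (unadjusted p = 0.329). The median log2 fold change of the members was 0.16, beside 0.07 for all genes, and no member's groups were apart, as 0.0273% of genes' were.

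Contralateral PTE+ was also set against sham. Again none of the 10 members reached an unadjusted p under 0.05 by edgeR, against 1.23% of genes (0% adjusted). Id4 was nearest, with a log2 fold change of -0.50 (standard error 0.25, unadjusted p = 0.0590), at 485 ± 93.0 against 686 ± 242 CPM (SD, n = 5 each). In sham it fell into 3 libraries of 444 to 555 CPM and 2 of 927 and 967 CPM. The median over the members was -0.16 and over all genes 0.03, and the groups overlapped for all 10 members, while 0.615% of genes had groups that did not. Between contralateral PTE- and sham, the log2 fold change of Id4 was -0.03 (standard error 0.22).

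In the ipsilateral libraries PTE+ and PTE- were compared beside the lesion. None of the 10 members had an unadjusted p under 0.05 by edgeR, against 1.75% of the 14903 genes tested (0% adjusted). Nfia had the smallest p. Its PTE+ libraries were at 103, 121, 122 and 182 CPM and its PTE- libraries at 24.8 to 135 CPM with a median of 88.7, and its log2 fold change was 0.59 (standard error 0.38, unadjusted p = 0.145). Without the libraries with few detected genes it was 0.52 (unadjusted p = 0.0561). By limma voom with quality weights 1 member, Id4, had an unadjusted p under 0.05, against 3.19% of genes. The median over the members was -0.15, over all genes -0.01, and the groups overlapped for all 10 members (0.161% of genes did not).

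Against sham, the ipsilateral PTE- libraries had 0 of 10 members at an unadjusted p under 0.05 by edgeR (1.58% of genes; 0% adjusted). Id2 had the smallest p, with a log2 fold change of -0.40 (standard error 0.30, unadjusted p = 0.194), at 303 ± 60.3 CPM (SD, n = 8) against 400.1 ± 216 CPM (n = 5). This value rests on the highest sham library, since without mouse a9_9 it was -0.09 (unadjusted p = 0.754), while without the lowest, mouse a9_10, it was -0.60 (unadjusted p = 0.0402). Ipsilateral PTE+ against sham likewise had 0 of 10 members by edgeR (1.66% of genes; 0% adjusted), and Id4 was nearest, at -0.38 (standard error 0.30, unadjusted p = 0.215). It too depends on sham mouse a9_9, without which it was -0.12 (unadjusted p = 0.674). The exact permutation test passed 1 member in that comparison, Nfia, at 132 ± 34.6 against 95.9 ± 13.4 CPM (exact p = 0.0317, 3.35% of genes), where edgeR gave a log2 fold change of 0.46 (standard error 0.43, unadjusted p = 0.293). The groups overlapped for all 10 members in both comparisons, against 0.0872% of genes without overlap for PTE- and 1.09% for PTE+.

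Id2 is the member with the smallest p between the sides of the brain in PTE- mice. Its contralateral PTE- libraries ranged from 253 to 506 CPM with a median of 425, and the ipsilateral ones from 199.6 to 388 CPM with a median of 306, so that the sides overlapped. In PTE- mice its level was lower in the ipsilateral than in the contralateral library in 7 of 8 mice, with a mean difference of -0.42 ± 0.40 on the log2(CPM + 1) scale (SD, n = 8, exact sign-flip permutation p = 0.0391), and the exception was mouse a8_9 at 0.35. It was lower in all 5 of the PTE- mice named a9 and in 2 of the 3 named a8. In PTE+ mice it was higher on the ipsilateral side in 4 of 4, by 0.04 to 0.24 with a mean of 0.12 ± 0.09 (n = 4, where 0.125 is the smallest possible exact p). In sham mice it was higher in 3 of 5, with a mean of 0.12 ± 0.44. An exact permutation of the status labels over these differences gave p = 0.0323 for PTE+ against PTE- (0.53 on the log2 scale). For both exact tests Id2 was the only one of 10 members under 0.05, against 4.11% of genes for the PTE- sides and 2.47% for the difference between PTE+ and PTE-. Among the PTE- mice, a8_11 and a8_14 had an ipsilateral and a9_14 a contralateral library with under 12000 detected genes (9020, 11271 and 11855). Their Id2 side differences were -0.865, -0.143 and -0.747, and that of a9_16, with neither library under 12000, was -0.73. No PTE+ library was under 12000. The exact tests include these libraries, and the part of detection in the Id2 differences was not tested.

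Without pairing the sides, edgeR gave a log2 fold change of -0.43 in PTE- (standard error 0.25, unadjusted p = 0.0934), and 0 of 10 members passed against 4.56% of genes (0% adjusted). With the mouse as a replicate block it was -0.42 (standard error 0.16, unadjusted p = 0.0182), 1 member of 10 against 2.0% of genes, with an adjusted p of 1.0. Without mouse a8_11, whose ipsilateral library had the fewest genes, the unpaired value was -0.35 (unadjusted p = 0.186). The summed astrocyte markers were 5941.5 to 19296 TPM in ipsilateral and 13170.0 to 19073 TPM in contralateral PTE-, and their part in the Id2 value was not tested. The side difference of Id2 between PTE+ and PTE- was 0.56 (standard error 0.43, unadjusted p = 0.200) without and 0.53 (standard error 0.28, unadjusted p = 0.0699) with the block. None of the 10 members passed that test in edgeR, against 2.94% of genes (0% adjusted).

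No other side comparison passed. In sham, 0 of 10 members had an unadjusted p under 0.05 by edgeR (2.05% of genes; 0% adjusted), and Sox2, with the smallest p, was at 0.22 on the log2 scale (standard error 0.25, unadjusted p = 0.381). Its sign rests on sham mouse a9_9, without which it was -0.01. In PTE+, 0 of 10 passed by edgeR (2.93% of genes, 0% adjusted), with Nfib nearest at 0.33 (standard error 0.29, unadjusted p = 0.265). All 10 fitted values were above 0 (median 0.14, and -0.02 over all genes), and all come from the same 4 mice. By mouse, Id2 and Id4 were higher on the ipsilateral side in 4 of 4, and Sox9, Sox2, Nfia and Nfib in 3. Hes1, Hes5 and Zbtb20 were higher there in 2 of 4 mice and Id3 in 1. Nfib was at 0.19 (unadjusted p = 0.598) without mouse a9_19 and at 0.64 (unadjusted p = 0.0691) without a9_18. The difference between the sides of injured and sham mice had 0 of 10 members by edgeR (2.4% of genes; 0% adjusted), with Id2 at -0.33 (standard error 0.38, unadjusted p = 0.390). That value was -0.17 without sham mouse a9_9, -0.52 without sham mouse a8_16, and -0.01 without the libraries with few detected genes.

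Between libraries of a group, 9 of the 10 genes varied less than the median gene in the CPM range of the members, in both hemispheres. Hes1 did not. That range was the same for all 10 genes, and Hes1, with a mean of 48.1 CPM, lies at its lower end. The biological coefficient of variation of edgeR, the spread between libraries beyond counting error, was 0.288 (Sox2) to 0.53 (Hes1) in the contralateral and 0.377 (Sox9) to 0.74 (Hes1) in the ipsilateral libraries, beside medians of 1.10 and 1.24 over all genes tested. Among the 4185 genes with a mean CPM in the range of the members, the medians were 0.517 and 0.686. Of these, 1.12% varied less than Sox2 and 3.97% less than Id4 in the contralateral libraries, and 1.74% varied less than Sox9 and 3.06% less than Id4 in the ipsilateral ones. Hes1 stood in the middle, with 52.2% and 54.4% of genes varying less, and Nfia was next, with 44.7% and 22.2%. The histogram of this coefficient shows these positions.

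**Figure D3:**
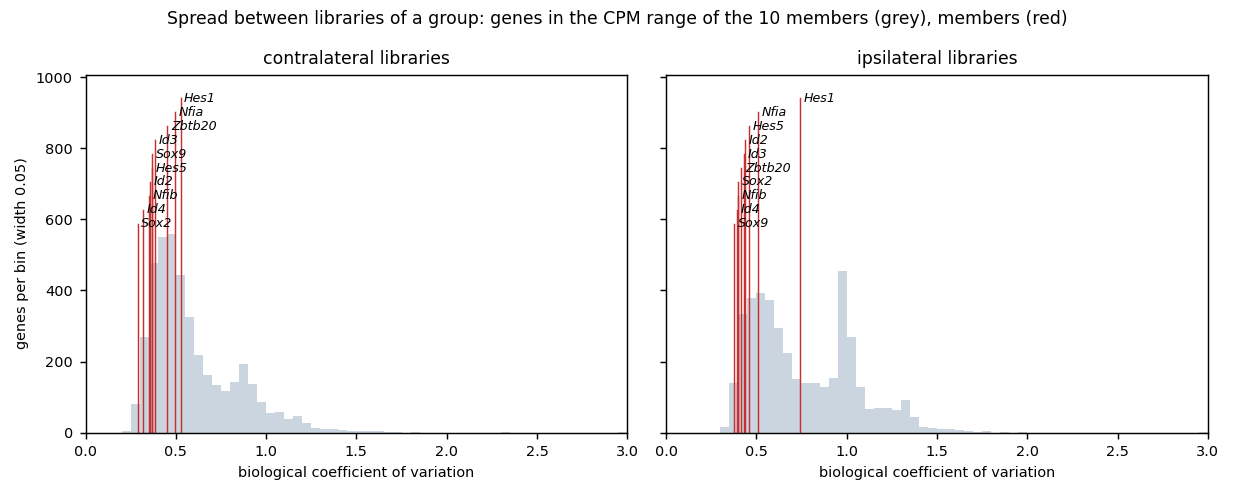
Number of genes (vertical axis, bins 0.05 wide) by biological coefficient of variation (horizontal axis, no unit) among genes in the CPM range of the members, in each hemisphere; red lines mark the 10 genes, at heights that only separate their names. The members lie between 0.288 and 0.53 in the contralateral and between 0.377 and 0.74 in the ipsilateral libraries.

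The deviation of each of the 17 mice from the mean of its group in one hemisphere was compared with its deviation in the other, in 10 relations. For Zbtb20 the correlation was r = 0.717 (permutation p = 0.00453 within groups) and rho = 0.728 (permutation p = 0.00348), and r was 0.844 without the 2 mice farthest from the median. For Id2 it was r = 0.73 (permutation p = 0.0146) and rho = 0.652 (permutation p = 0.0246), and for Id4 r = 0.569 (permutation p = 0.0294) and rho = 0.613 (permutation p = 0.0121). Without the 2 farthest mice r was 0.572 for Id2 and 0.493 for Id4. Over 10333 genes the median of r was 0.0675, and 1.31% of genes had an r at least as high as Zbtb20, 1.14% as Id2 and 4.7% as Id4. For Id3 rho was 0.532 (permutation p = 0.0448) and r 0.415 (permutation p = 0.13), and for Sox2 r was 0.546 (permutation p = 0.0685) and rho 0.387 (permutation p = 0.182). Without the 2 farthest mice r was 0.256 for Id3 and 0.287 for Sox2. Within the name prefixes, Zbtb20 had r = 0.776 in the 6 mice named a8 and 0.635 in the 11 named a9. Id2 had -0.394 and 0.917 and Id4 0.123 and 0.723, so the relation of Id2 and Id4 rests on the a9 mice. Id3 had 0.484 and -0.121, and Sox2 had 0.101 and 0.7. The permutations kept to the groups but not to the name prefixes, and the part of the prefix in these relations was not tested. Sox9 (r = -0.113), Nfia (-0.0361), Nfib (-0.237) and Hes1 (-0.276) had an r below the median of all genes. The plot of deviations shows Sox9 beside the 3 members above.

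**Figure D4:**
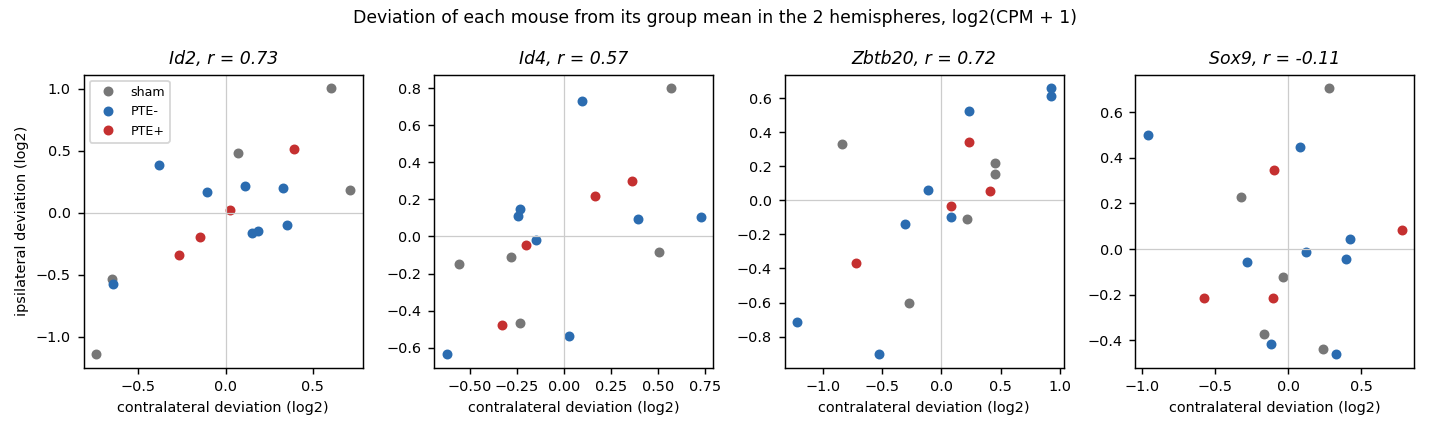
Deviation of each mouse from the mean of its group, on the log2(CPM + 1) scale, in the contralateral (horizontal axis) and ipsilateral (vertical axis) library; points are mice and colours the groups. Id2, Id4 and Zbtb20 run from lower left to upper right (r = 0.73, 0.569 and 0.717), while Sox9 is scattered (r = -0.113).

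Among the 45 pairs of members, the median r was 0.15 on the contralateral side (20 libraries) and -0.00773 on the ipsilateral side (17 libraries). An r under -0.5 was found in 2 contralateral pairs, Sox9 with Id3 and Id3 with Zbtb20 (-0.516). On the ipsilateral side 1 pair had it, Nfia with Hes1 (-0.602). The share of all gene pairs past 0.5 or -0.5 was not computed, so these counts have no background. An r above 0.5 was found in 3 contralateral and 7 ipsilateral pairs, and 1 pair reached it on both sides, Sox2 with Id2. It had r = 0.558 (permutation p = 0.0114) and rho = 0.502 (permutation p = 0.0261) in the contralateral and r = 0.753 (permutation p = 0.00102) and rho = 0.485 (permutation p = 0.0498) in the ipsilateral libraries. Without the 2 libraries farthest in Sox2, r was 0.51 and 0.292, so the ipsilateral relation rests on those libraries. Sox9 and Nfib had r = 0.689 (permutation p = 0.00081) and rho = 0.624 (permutation p = 0.00408) in the contralateral libraries and r = 0.108 (permutation p = 0.68) and rho = 0.0319 (permutation p = 0.907) in the ipsilateral ones. Without the 2 libraries farthest in Sox9 the contralateral r was 0.459. Sox9 and Id3 ran in opposite directions, with r = -0.529 (permutation p = 0.0177) and rho = -0.471 (permutation p = 0.0381) in the contralateral and r = -0.417 (permutation p = 0.0973) and rho = -0.434 (permutation p = 0.0831) in the ipsilateral libraries. Without the 2 farthest in Sox9, r was -0.345 and -0.575. In contralateral PTE- the mean log2(CPM + 1) in mice named a8 and a9 was 8.76 and 9.16 for Sox9, and 9.33 and 8.87 for Id3. In contralateral sham it was 9.05 and 8.89 for Sox9, and 9.11 and 8.50 for Id3. The permutations were over all libraries of a hemisphere, across groups and name prefixes, and the part of the prefix was not tested. The relations given with a p are 6 of 90 computed (45 pairs in each hemisphere), with no correction. In the contralateral libraries Sox9 and Nfib both had lower levels where more genes were detected, with r = -0.501 and r = -0.655 against the number of detected genes as a description, and the part of detection in their relation was not tested.

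The genes most like each member were found by Pearson correlation over the 37 libraries, which share mice, among 10333 genes with a mean of at least 10 CPM. For the Id genes they were Cldn10 (0.775), Ndufc2 (0.724) and Il18 (0.721) for Id2, Ftl1 (0.769), Prdx6 (0.766) and Prdx2 (0.754) for Id3, and Mdk (0.776), Cd9 (0.735) and Fxyd1 (0.706) for Id4. Ftl1 encodes a ferritin subunit and the Prdx genes encode peroxiredoxins. For the SOX genes they were Zfp36l1 (0.736), Dync1i2 (0.683) and Dtx3 (0.64) for Sox9 and Hspe1 (0.648), Cd47 (0.642) and Il18 (0.635) for Sox2. Id2 was 4th in likeness to Sox2. Nfia was nearest to Ccdc88a (0.749), Ylpm1 (0.737) and Tcf7l2 (0.712), Nfib to Srrm2 (0.608), Arid5b (0.596) and Dst (0.576), and Zbtb20 to Trrap (0.732), Aplp2 (0.669) and Gpr17 (0.654). The lists of the Notch targets were Cir1 (0.672), Myl9 (0.659) and Rap1b (0.652) for Hes1 and Hmgn3 (0.696), Htra1 (0.588) and Marcks (0.584) for Hes5, with no gene in common.

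Counts and TPM of a gene differ by the transcript length that RSEM assigned in a library, and Nfia had the widest range of it. From both tables, and from genes with 1 annotated transcript to set the scale of each library, the implied length was 4213 to 4370 bases for Sox9 and 3906 to 4040 for Id4, genes with 1 annotated transcript of 4135 and 3849 bases. Nfia has 8 annotated transcripts of 821 to 9526 bases. Its implied length was 1324 to 4335 bases in 34 libraries and 9450 to 9621 bases in 3, all PTE-: the contralateral libraries of mice a9_15 and a9_20 and the ipsilateral library of a8_11. The last pair, with 11756 and 9020 detected genes, are among the 5 libraries with few genes, and a9_15 had 12934, and the part of detection in the length was not tested. In those 3 its TPM was 6.77, 9.06 and 3.22, and in the other 34 it was 21.2 to 147. Their CPM was 48.6, 50.4 and 24.8, and that of the other 34 was 41.6 to 239. Nfib, with 12 annotated transcripts, ranged from 3438 to 6100 bases, and Zbtb20, with 21, from 2666 to 5789. In these 3 genes a difference in TPM can hold a difference in assigned length.

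**Figure D5:**
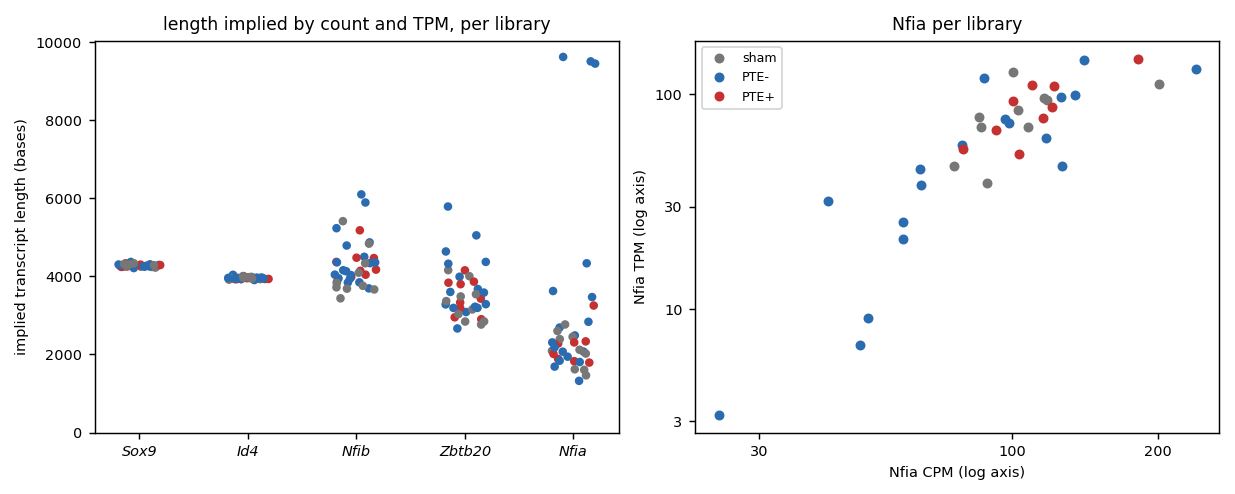
Left, transcript length implied by count and TPM (vertical axis, bases) in each of the 37 libraries for 5 genes; right, TPM against CPM of Nfia, both on log axes; points are libraries and colours the groups. Sox9 and Id4 keep 1 length, and 3 PTE- libraries have Nfia between 9450 and 9621 bases and under 10 TPM.

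The pathways around the members were followed with 4 lists that hold none of them. Of 20 other transcription factors of astrocytes and radial glia, all were tested in the 11 comparisons, and 1 had an unadjusted p under 0.05: Lhx2, which keeps radial glia proliferating, was at -0.54 on the log2 scale (standard error 0.23, unadjusted p = 0.0316 from edgeR) in contralateral PTE+ against PTE-. This is 0.455% of the 220 tests of the list, beside 2.21% of all genes in that comparison and 1.23% to 4.56% over the 11. The median of the list there was -0.33 (15 of 20 lower), beside -0.05 for all genes. The 23 tested genes of the BMP and SMAD pathway, which leads to the Id genes, had none under 0.05 by edgeR in any comparison, with list medians from -0.27 to 0.22. Adjusted p-values under 0.05 were absent from all 4 lists.

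Of the 28 genes of the Notch pathway, which leads to Hes1 and Hes5, 1 was higher and 3 were lower over the 308 tests of the 11 comparisons, which is 1.3% of the tests, beside 1.23% to 4.56% of all genes by comparison. Hey1, another Notch target, was lower in ipsilateral PTE- than in ipsilateral sham, with a log2 fold change of -0.72 (standard error 0.32, unadjusted p = 0.0358 from edgeR), and lower than in contralateral PTE- (-0.67, standard error 0.29, unadjusted p = 0.0251). Its ipsilateral libraries were at 45.3 to 155 CPM in PTE- and 134.5 to 223 CPM in sham. Rbpj, the DNA-binding partner of Notch, was higher in ipsilateral than contralateral PTE- (1.42, standard error 0.68, unadjusted p = 0.0433), with values from 0.381 to 34.3 CPM in those groups. Hes7 was lower in contralateral PTE+, at 0.106 to 0.291 CPM, than in PTE-, at 0.132 to 4.14 CPM (-2.24, standard error 1.03, unadjusted p = 0.0411).

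The 11 tested E proteins and related basic helix-loop-helix factors, the partners and targets of Id proteins, gave 3 higher and 3 lower calls over 121 tests, of which 4 were Neurog2. That is 4.96% of the tests, beside 1.23% to 4.56% of all genes by comparison. Neurog2, a proneural factor, had at most 3 counts in 22 of 37 libraries and in all 5 contralateral PTE+ libraries, and no fold is given. Tcf4, an E protein, was lower in contralateral PTE+ than in PTE-, at 331 to 442 against 297 to 739 CPM (log2 fold change -0.40, standard error 0.18, unadjusted p = 0.0387 from edgeR). Bhlhe41, a repressor that Id proteins bind, was higher in ipsilateral than contralateral PTE- (1.53, standard error 0.58, unadjusted p = 0.0128), with medians of 26.0 and 19.7 CPM and 1 ipsilateral library at 261 CPM.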

How the data were processed

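The authors trimmed reads with Trim Galore 0.6.4 and quantified genes with RSEM 1.2.28 and Bowtie2 2.4.1 on mm10, per the methods and the submitters' notes. They deposited RSEM expected counts, which were rounded to whole numbers here, and TPM values. The annotation release was not given in the sources used here, and gene coordinates are those of GENCODE M21. Groups came from the sample labels. Counts were fitted over all genes left by filterByExpr with edgeR 4.0.16 (TMM scaling, quasi-likelihood test, Benjamini-Hochberg adjustment over all genes), separately for each hemisphere and jointly for the side comparisons. Fold changes are given for each member with an unadjusted p under 0.05 or, with none, the member with the smallest p, for list genes under 0.05 (at most 3 a list and comparison), and the 3 genes most like each member are named. The contralateral Hes5 and Hes1 values for PTE+ against PTE-, the Id4 value for PTE- against sham and the Nfia value for ipsilateral PTE+ against sham were chosen after their values were seen. Exact permutation tests used log2(CPM + 1) and were two-sided, and correlations used 100000 permutations. Alternatives used DESeq2 1.42.0, limma 3.58.1, RLE scaling, no filter, the name prefix as covariate, the groups compared alone, and each library left out. Libraries of the same mouse were paired by the mouse named in the labels: the deviations of same-mouse pairs had a median r of 0.0845 over genes, and those of other pairs -0.024. The same-mouse values ranged from -0.0464 to 0.368. Deviations cancel within a group, so the values of other pairs are not independent of the same-mouse values. The number of libraries and their depth limit the precision. The fits were tested on simulated data. The members and the lists were chosen with earlier results of these data known.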

Additional observations from a re-analysis of the deposited data

Results flagged for a closer look

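Among 60 sets of libraries of 1 group and 1 member, 7 had a highest library far from the others by Dixon's criterion. About 1 of 20 sets of normally distributed values meets it. It was applied to CPM without a log transformation, and the sets share libraries, so that rate need not hold here. In CPM these were Sox9 in contralateral PTE- mouse a9_20 (1000.3, next 628) and contralateral PTE+ mouse a9_18 (745, next 405), Nfia in contralateral PTE- mouse a8_9 (239, next 141), Id3 in contralateral PTE- mouse a8_11 (1297.5, next 608), Id4 in ipsilateral sham mouse a9_9 (1184.7, next 642), and Id4 (1019.7, next 680.02) and Hes1 (209.6, next 55.7) in ipsilateral PTE- mouse a8_11. The libraries of a9_20, a9_9 and a8_11 (ipsilateral) are among the 5 with fewer than 12000 detected genes. The part of detection in these values was not tested.

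The side difference of Id2 differed between PTE+ and PTE- mice by 0.53 on the log2(CPM + 1) scale (exact permutation p = 0.0323), higher on the ipsilateral side in 4 of 4 PTE+ and 1 of 8 PTE- mice. The same contrast in edgeR had an unadjusted p of 0.200. Some of the PTE- libraries, and no PTE+ library, had fewer than 12000 detected genes.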

How the results depend on the processing

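No member had an adjusted p under 0.05 in any of the 11 comparisons under any alternative run. Of the alternatives for counts at an unadjusted p under 0.05, 201 left the count the same and 25 moved it. Of those for fold changes, 202 kept direction and side of the threshold, 10 lost it, 12 passed it and 2 changed sign. The count of members with an unadjusted p under 0.05 in contralateral PTE+ against PTE- (1) became 0 with limma on log2(TPM + 1). Counts of 0 became 1 in ipsilateral PTE+ against PTE- with limma voom (Id4), in ipsilateral PTE+ against sham with the exact permutation test at either pseudocount, 1 or 0.1 (Nfia), and in the side difference of PTE+ and PTE- with the same test (Id2). In the PTE- sides the count became 1 with that test and with a replicate block by mouse (Id2, -0.42), and the block changed no other call of a member. Over all genes the block lowered the calls from 717 to 315 in PTE-, from 323 to 52 in sham, from 461 to 120 in PTE+, from 378 to 113 between injured and sham, and from 462 to 182 between PTE+ and PTE-. With 1 library left out, the count ranged from 0 to 2 in contralateral PTE+ against PTE- (2, Id4 and Sox9, without PTE+ mouse a9_18), and from 0 to 1 in contralateral PTE- against sham (Hes5), contralateral PTE+ against sham (Id4) and ipsilateral PTE- against sham (Id2). It became 1 for Hes5 without PTE- mouse a9_13 or sham mouse a9_9, and for Id4 against sham without PTE+ mouse a9_18 or sham mouse a8_15, a9_10 or a9_11. In the sham sides the log2 fold change of Sox2 turned from 0.22 to -0.01 without mouse a9_9 (range -0.0057 to 0.37 with 1 mouse left out), and to -0.16 without the libraries under 12000 detected genes, an alternative chosen after the data were seen. The cause was not tested. Intervals from 4 to 10 mice a group are wide: standard errors of the members were 0.185 to 0.737, and differences above 1 standard error also missed the threshold, as Hes5 and Hes1 did in contralateral PTE+ against PTE-.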
